A study of Mus musculus with 6 samples.

Results

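The 10 genes described here encode the main integrin subunits of leukocytes and a pair of their ligands. They are the alpha subunits Itgae, Itgal, Itga4, Itga6 and Itgav, the beta subunits Itgb1, Itgb2 and Itgb7, and the intercellular adhesion molecules Icam1 and Icam2. They were chosen by symbol, and 10 of 10 were found among the 32377 gene identifiers of the count table. The study compared mouse RNA-seq libraries labelled as regulatory T (Treg) cells without TNFR2 (3 libraries) and with it (3 libraries). TNFR2 binds tumour necrosis factor, and Treg cells, the CD4 T cells that restrain other immune cells, carry much of it. The labels name only the TNFR2 state of each group, and give no genotype, strain, age, tissue, treatment or sort, so how the deficiency was made and what both groups share are not known from them. Whether each library is a separate animal is not stated, so a p-value here reflects differences among 3 libraries that could be technical repeats.

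Integrins are surface receptors made of 1 alpha and 1 beta chain that link a cell to other cells or to the extracellular matrix. The alpha L chain with beta 2 forms LFA-1, which binds ICAM-1 and ICAM-2 on other cells and holds T cells to vessel walls and to antigen-presenting cells. The alpha 4 chain pairs with beta 1 to bind VCAM-1 and fibronectin, or with beta 7 to bind MAdCAM-1 in gut vessels, while alpha E with beta 7 (CD103) binds E-cadherin and marks a subset of Treg cells and T cells kept in epithelia. The alpha 6 chain pairs with beta 1 to bind laminin, and alpha V chains bind matrix proteins and help to release active TGF-beta.

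Counts summed to between 19296082 and 24038118 per library, so the floor of 3 counts was at 0.125 to 0.153 CPM (counts scaled to the TMM-adjusted library size), which covers counting error only. Tnfrsf1b, the gene for TNFR2, was at 7.87 ± 0.503 CPM in the TNFR2-deficient and 83.0 ± 2.48 CPM in the TNFR2-positive libraries (SD, n = 3 each), the direction of the labels. Foxp3, the defining factor of Treg cells, was at 1.44 ± 0.0974 CPM in the TNFR2-deficient libraries against 75.5 ± 2.14 CPM. There 8 of 8 Treg markers were lower at an edgeR adjusted p below 0.05, as were 34.2% of the 17022 genes tested. The 9 markers of double-positive thymocytes summed to 3374 to 3465 CPM in the TNFR2-deficient libraries against 352.1 to 366.1 CPM, and the recombinase gene Rag1 among them was at 917.9 ± 72.7 against 3.31 ± 0.0785 CPM. The 6 B cell markers summed to 6370 to 6639 against 4991 to 5168 CPM, above the 8 pan T cell markers at 1890 to 1960 against 822.2 to 857.3 CPM, with 0 of the 6 at 0 in either group. The 9 myeloid markers summed to 882.8 to 958.6 against 465.9 to 523.5 CPM, and the 6 endothelial markers to 1.43 to 1.91 against 2.81 to 4.07 CPM, with 1 of the 6 at 0 counts in each group. In such bulk RNA, fewer cells of a type and less RNA per cell cannot be told apart. The 7 erythroid markers summed to 18067 to 20615 against 4236 to 7010 CPM, with 7 of 7 at least 2-fold higher. Of all genes tested, 8.01% were at least 2-fold higher. The platelet list was smaller. The 4 platelet markers measured summed to 10.4 to 11.96 against 4.97 to 5.76 CPM. Of these 3 were at least 2-fold higher, and Gp1ba was lower (1.95 against 3.41 CPM, edgeR adjusted p = 0.00175). B cells, thymocytes, myeloid cells and platelets express several of these integrins too, and the part of these other cells in the results below was not tested. TNFR2-positive library 1 stood apart from its group. The chi-square statistic per gene was 15.6 and 20.7 against libraries 2 and 3, which differed from each other by 2.59.

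Of the 10 genes, 8 were lower and 1 was higher in the TNFR2-deficient libraries at an adjusted p-value below 0.05 (edgeR quasi-likelihood test, adjusted by the Benjamini-Hochberg method over all genes). Over the 17022 genes tested, 34.2% were lower, 35.1% higher and 69.3% changed in either direction. The genes that fell were all 5 alpha subunits, the beta subunits Itgb1 and Itgb7, and Icam1, while Icam2 rose and Itgb2 did not pass the threshold. The median log2 fold change (log2FC, TNFR2-deficient over TNFR2-positive) was -0.66 over the 10 genes and 0.04 over all genes tested. The libraries of the groups did not overlap for 10 of 10 genes, against 74.5% of all genes tested. A change of at least 2-fold was reached by 3 lower and 0 higher genes, where 13.5% and 8.01% of all genes, together 21.5%, reached it. The 10 genes passed the filter on low counts, and the smallest count of a library was 56, for Itgae.

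**Figure D1:**
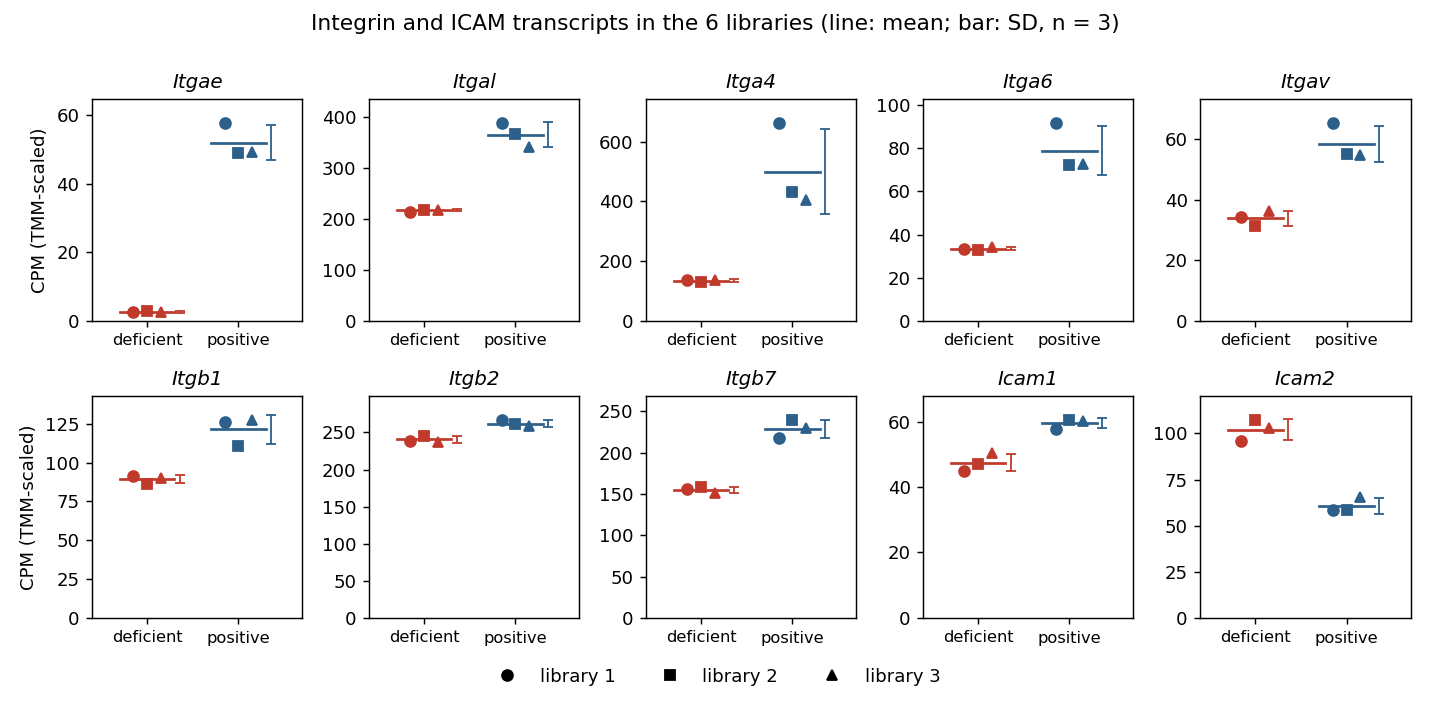
TMM-scaled CPM (y axis from 0) of each gene in the 3 TNFR2-deficient (red) and 3 TNFR2-positive (blue) libraries, with the mean as a line and the SD as a bar. The red points lie below the blue ones for every gene but Icam2, and TNFR2-positive library 1 (circle) is the highest of its group for all 5 alpha subunits.

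Among the alpha subunits, Itgae (ENSMUSG00000005947), the chain of CD103, differed most. TNFR2-deficient libraries 1 to 3 held it at 2.42, 2.84 and 2.49 CPM, and TNFR2-positive libraries 1 to 3 at 57.8, 49.0 and 49.2 CPM. Every TNFR2-deficient library was thus far below every TNFR2-positive one, yet well above the floor, with 56 to 63 counts each. The difference was 20.1-fold (log2FC = -4.33, 95% confidence interval -4.57 to -4.09, adjusted p = 5.53e-11). Itgae is also a gene commonly listed among Treg markers, and Foxp3 had a log2FC of -5.70 in the same libraries.

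Itga4 (ENSMUSG00000027009), the alpha 4 chain of the receptors for VCAM-1 and MAdCAM-1, followed. The TNFR2-deficient libraries held 136.7, 128.6 and 137.7 CPM of it and the TNFR2-positive libraries 664.2, 430.2 and 405.2 CPM. TNFR2-positive library 1 was well above its companions, and the groups stayed apart without it. The fall was 3.72-fold (log2FC = -1.90, 95% confidence interval -2.23 to -1.56, adjusted p = 7.25e-07), and the log2FC was -1.64 without TNFR2-positive library 1. Across all genes, longer genes were lower in the TNFR2-deficient libraries (rho = -0.298 between log2FC and exonic length, over genes, which are not independent), and Itga4 has 13978 exonic bases, the most of the 10. With that relation removed its log2FC was -1.30 (edgeR adjusted p = 1.57e-09, with a range from 5.23e-148 to 1.75e-05 over the alternatives without a minimum fold). Exons of Cerkl on the other strand share 1124 bases with those of Itga4, but Cerkl held 190 counts in all 6 libraries together against 41885 for Itga4. For Itgav and Icam1 the antisense genes that share exonic bases, Gm13684 and Gm47079, held 23 and 10 counts.

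Itga6 (ENSMUSG00000027111), the laminin-binding chain, measured 33.3, 32.7 and 34.3 CPM without TNFR2 and 91.9, 72.2 and 72.7 CPM with it. The groups were clearly separate, and library 1 was again the highest of the TNFR2-positive group. The level fell 2.36-fold (log2FC = -1.24, 95% confidence interval -1.44 to -1.04, adjusted p = 3.88e-07), with a log2FC of -0.85 once the relation to gene length was removed.

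The last pair of alpha subunits fell by less than 2-fold. Itgal (ENSMUSG00000030830), which encodes the alpha chain of LFA-1 (CD11a), was at 214.3, 217.4 and 217.9 CPM in TNFR2-deficient and 388.8, 367.6 and 340.5 CPM in TNFR2-positive libraries. The former lay within a few CPM of each other and the latter were spread more widely, without overlap. The fall was 1.69-fold (log2FC = -0.76, 95% confidence interval -0.89 to -0.62, adjusted p = 9.79e-07), and -0.52 on the log2 scale with the length relation removed. Itgav (ENSMUSG00000027087), the alpha V chain, was at 34.2, 31.2 and 36.1 CPM against 65.4, 54.9 and 54.8 CPM. Its groups did not overlap either, and the fall was 1.72-fold (log2FC = -0.79, 95% confidence interval -0.97 to -0.60, adjusted p = 7.29e-06). Itgav has 10744 exonic bases, and with the length relation removed its log2FC was -0.32 (edgeR adjusted p = 0.00023, the highest over the alternatives without a minimum fold, whose lowest was 4.33e-21).

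The beta subunits, which are shared between several alpha chains, had log2FC nearer to 0 than any of these 5 alpha subunits. With the length relation removed this order did not hold, with Itgb7 at -0.67 and Itgb1 at -0.44 against -0.52 for Itgal and -0.32 for Itgav. Itgb7 (ENSMUSG00000001281), the partner of alpha E and of alpha 4, was at 155.8, 158.5 and 151.5 CPM in TNFR2-deficient and 217.7, 239.7 and 229.6 CPM in TNFR2-positive libraries. The groups were separate, with TNFR2-positive library 1 the lowest of its group. The fall was 1.47-fold (log2FC = -0.56, 95% confidence interval -0.69 to -0.43, adjusted p = 6.57e-06). Itgb1 (ENSMUSG00000025809), the common chain of the matrix receptors, was at 91.4, 86.5 and 90.3 CPM against 126.2, 110.9 and 127.5 CPM. All TNFR2-deficient libraries were lower here too, by 1.36-fold on average (log2FC = -0.44, 95% confidence interval -0.59 to -0.30, adjusted p = 0.000104).

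Itgb2 (ENSMUSG00000000290), the beta chain of LFA-1 and of the myeloid integrins, was at 238.4, 245.7 and 237.6 CPM in TNFR2-deficient and 266.9, 261.0 and 258.1 CPM in TNFR2-positive libraries. The groups lay close together without overlapping, and the test did not call a difference (log2FC = -0.12, adjusted p = 0.0616). The 95% confidence interval, which is not adjusted for the number of genes, ran from -0.24 to -0.0042. Several alternatives called Itgb2 lower, among them DESeq2 (log2FC = -0.16, adjusted p = 0.0237), the edgeR fit without TNFR2-positive library 1 (-0.11, adjusted p = 0.0305) and the removal of the length relation (-0.21, adjusted p = 0.00109). Over all alternatives without a minimum fold the log2FC ranged from -0.21 to -0.07 and the adjusted p from 0.00109 to 0.324.

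**Figure D2:**
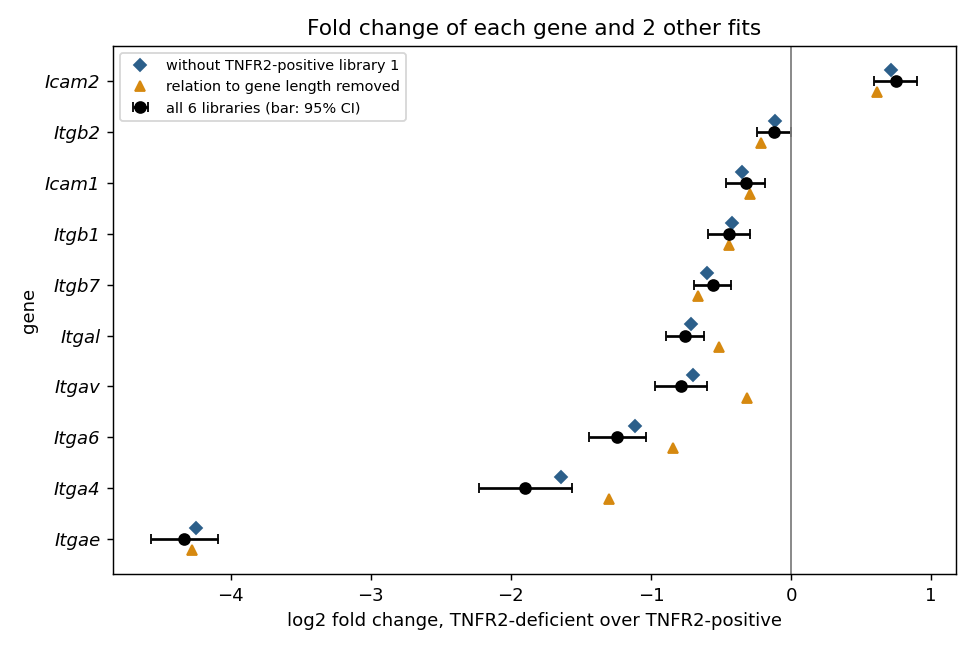
Log2 fold change of each gene (x axis, TNFR2-deficient over TNFR2-positive) from all 6 libraries with its 95% confidence interval (black), without TNFR2-positive library 1 (blue) and after taking out the length relation (orange). No estimate crosses 0. The orange points of Itga4, Itga6, Itgal and Itgav, at -1.30, -0.85, -0.52 and -0.32, lie nearer to 0 than the black ones, and that of Itgb7, at -0.67, lies further from it.

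The ICAM ligands moved in opposite directions. Icam1 (ENSMUSG00000037405), a ligand of LFA-1 that inflammatory signals induce, was at 45.02, 47.1 and 50.3 CPM in TNFR2-deficient and 57.7, 60.5 and 60.2 CPM in TNFR2-positive libraries. All TNFR2-deficient values were lower, by 1.25-fold (log2FC = -0.32, 95% confidence interval -0.46 to -0.19, adjusted p = 0.000672). Icam2 (ENSMUSG00000001029), a ligand of LFA-1 that resting lymphocytes and endothelium carry, was at 95.9, 107.3 and 102.9 CPM against 58.3, 58.4 and 65.8 CPM. It was the only one of the 10 genes whose TNFR2-deficient libraries all lay above the others, 1.68-fold on average (log2FC = 0.75, 95% confidence interval 0.59 to 0.90, adjusted p = 2.5e-06). The 6 endothelial markers summed to 1.43 to 1.91 against 2.81 to 4.07 CPM in these libraries. Of the lymphocyte lists, the 6 B cell markers summed to 6370 to 6639 against 4991 to 5168 CPM. The 8 pan T cell markers summed to 1890 to 1960 against 822.2 to 857.3 CPM, while all 8 Treg and all 6 NK and cytotoxic markers were lower. The part of any of these cells in the level of Icam2 was not tested.

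The start regions of Icam1, Itga4 and Itgb7 are shown because Icam1 is a textbook target of NF-kB, the factor that tumour necrosis factor receptors activate, and because alpha 4 and beta 7 are partners that fell by unequal amounts. RefSeq promoters of GRCm38.p6 were at hand for 5 of the 10 genes, Itga4, Itgav, Itgb1, Itgb7 and Icam1. Each sequence is the 250 bases before the annotated start of transcription, 5′ to 3′ on the gene's strand, and capitals mark every match, on either strand, of GGANNNTCC (NF-kB), GGAAGT (ETS), TGTGGT (RUNX) or GGGCGG (SP1). The regions are chr9:21015690-21015939 (+ strand) for Icam1, chr2:79255176-79255425 (+ strand) for Itga4 and chr15:102231936-102232185 (- strand) for Itgb7.
Icam1: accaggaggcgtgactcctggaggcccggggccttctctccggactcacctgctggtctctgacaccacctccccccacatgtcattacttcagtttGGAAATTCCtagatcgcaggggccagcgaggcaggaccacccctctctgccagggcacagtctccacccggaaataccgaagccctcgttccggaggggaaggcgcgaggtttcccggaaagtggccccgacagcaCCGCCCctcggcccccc
Itga4: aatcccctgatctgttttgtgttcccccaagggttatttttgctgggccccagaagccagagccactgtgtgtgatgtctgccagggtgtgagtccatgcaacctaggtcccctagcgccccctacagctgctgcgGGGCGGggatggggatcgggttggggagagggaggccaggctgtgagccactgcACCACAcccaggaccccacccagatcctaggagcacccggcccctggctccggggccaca
Itgb7: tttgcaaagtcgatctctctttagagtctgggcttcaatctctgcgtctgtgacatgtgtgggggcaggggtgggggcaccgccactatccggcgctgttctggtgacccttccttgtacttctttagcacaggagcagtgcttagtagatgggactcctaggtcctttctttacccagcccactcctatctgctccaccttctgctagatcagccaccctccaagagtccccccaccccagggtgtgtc

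In Icam1, the NF-kB pattern matched once, as GGAAATTCC at 153 to 145 bases before the start, and SP1 matched once on the other strand, at 17 to 12 bases before the start. The Itga4 window held 1 SP1 match, 114 to 109 bases before the start, and 1 RUNX match on the other strand, 60 to 55 bases before it. The Itgb7 window held 0 matches of the 4 patterns. The Itgb1 window held 1 SP1 match and that of Itgav 2 ETS matches. No 2 matches in these windows overlapped. Among all 32851 promoter windows of this length, 7.27% held the NF-kB pattern, 19.7% the ETS, 14.0% the RUNX and 32.7% the SP1 pattern. For Icam1 and Itga4 the bases supplied after the start did not lie whole in a coding transcript of GENCODE M21. Distances to the start thus rest on the RefSeq promoter given. A match describes the letters only, and binding was not measured.

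Levels of different genes were compared as CPM per kilobase of exon. In the TNFR2-positive libraries Itgb2 (85.8) and Itgb7 (82.7) stood highest and their libraries overlapped. Itgal (55.7) came next, then Itga4 (35.8), Icam2 (31.9) and Itgb1 (29.8), where each overlapped its neighbour in the order. Icam1 (13.6), Itgae (11.4), Itga6 (8.75) and Itgav (5.43) followed without overlap between neighbours.

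In the TNFR2-deficient libraries the order on this scale was Itgb2 (78.8), Itgb7 (56.0), Icam2 (53.6), Itgal (33.0), Itgb1 (21.9), Icam1 (10.9), Itga4 (9.61), Itga6 (3.71), Itgav (3.15) and Itgae (0.565), and only Itgb7 and Icam2 overlapped as neighbours. Itga4 thus stood at place 4 of 10 in the TNFR2-positive and at place 7 in the TNFR2-deficient libraries, Itgae at places 8 and 10, and Icam2 at places 5 and 3. Of the summed level per kilobase of the 3 beta subunits, Itgb2 took 50.3% ± 0.421 in the TNFR2-deficient and 43.3% ± 0.973 in the TNFR2-positive libraries, Itgb7 35.8% ± 0.343 and 41.7% ± 1.77, and Itgb1 14.0% ± 0.555 and 15.02% ± 1.20. These levels depend on the gene length used. With the longest protein-coding transcript, chosen as an alternative after the data were seen, Icam2 stood above Itgb7 in the TNFR2-deficient libraries (79.6 against 57.9 CPM per kilobase), and Itgae below Itga6 in the TNFR2-positive ones (13.5 against 18.3).

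**Figure D3:**
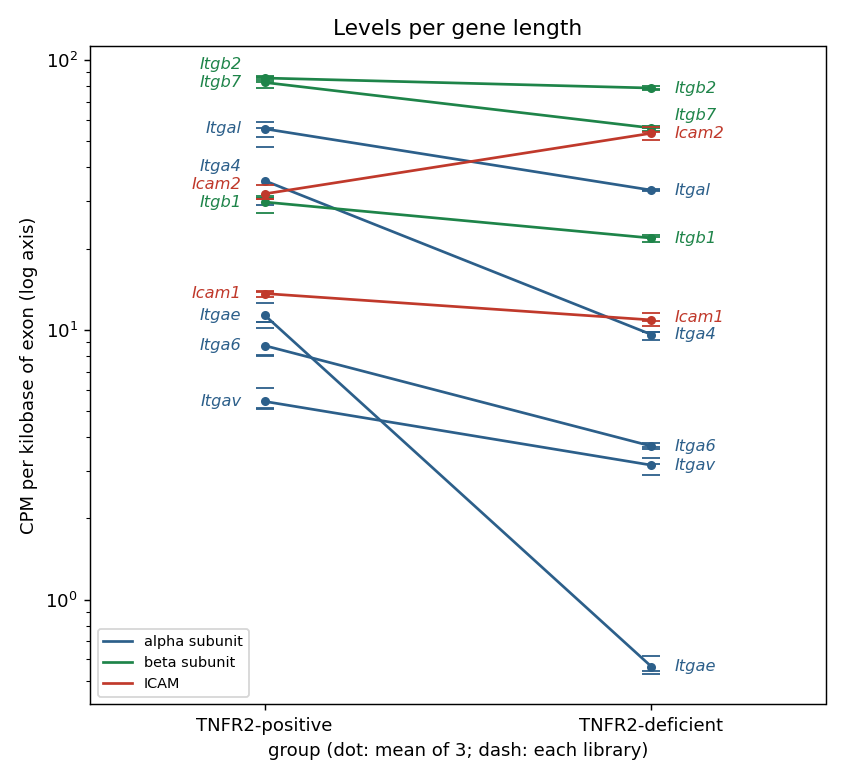
CPM per kilobase of exon (log axis) of each gene in the TNFR2-positive (left) and TNFR2-deficient (right) libraries, with dots for the means of 3, dashes for the libraries and lines joining each gene. Itgae drops from 11.4 to 0.565 and Itga4 from 35.8 to 9.61, while Icam2 crosses upward from 31.9 to 53.6.

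Ratios of counts within a library do not depend on how libraries are scaled, though they do on the relation to gene length, and 9 were compared with an exact two-sided permutation test, which cannot go below p = 0.1 with 3 libraries against 3. For 8 of the 9 the groups did not overlap, and these reached that smallest value (exact permutation test, adjusted over the 9 ratios, p = 0.113). The groups did not overlap for 74.5% of all single genes tested, and ratios of other gene pairs were not compared. The ratio of Itgae to Itgb7 counts was 0.0157, 0.0181 and 0.0166 in the TNFR2-deficient and 0.266, 0.205 and 0.214 in the TNFR2-positive libraries, a 13.5-fold difference in the means of the log2 ratios (log2 difference -3.76). Itgae thus differed by more than its partner did, also with the length relation removed, an alternative added for the ratios after the data were seen (log2 difference -3.59).

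The alpha 4 chain was compared with both of its partners. Counts of Itga4 were 0.878, 0.811 and 0.909 times those of Itgb7 in the TNFR2-deficient and 3.05, 1.79 and 1.77 times in the TNFR2-positive libraries (log2 difference -1.30). They were 1.496, 1.487 and 1.525 times those of Itgb1 against 5.26, 3.88 and 3.18 times (log2 difference -1.42). Itga4 was thus lower against either partner, and with the length relation removed these differences were -0.62 and -0.85, still without overlap. Itgb7 over Itgb1 was 1.71, 1.83 and 1.68 against 1.73, 2.16 and 1.80, with overlap (log2 difference -0.12, exact permutation p = 0.4). With the length relation removed it was lower in all TNFR2-deficient libraries (log2 difference -0.23, exact permutation p = 0.1).

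Against Itgb1, the alpha 6 chain was lower as well, with a log2 difference of -0.79, or -0.40 with the length relation removed. For Itgav over Itgb1 the difference was -0.34, and it turned to 0.12 with overlapping groups once the length relation was removed (exact permutation p = 0.3), so its direction depends on that step. For the chains of LFA-1, Itgal over Itgb2 was 0.899, 0.885 and 0.917 in the TNFR2-deficient and 1.46, 1.41 and 1.32 in the TNFR2-positive libraries (log2 difference -0.63, or -0.30 with the length relation removed). Itgb2 over Itgb1 was higher in the TNFR2-deficient libraries (log2 difference 0.32). Icam1 over Icam2 was 0.470, 0.439 and 0.489 against 0.990, 1.04 and 0.915 (log2 difference -1.07), so the TNFR2-deficient libraries held more Icam2 than Icam1 counts and the TNFR2-positive ones nearly as many of each.

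**Figure D4:**
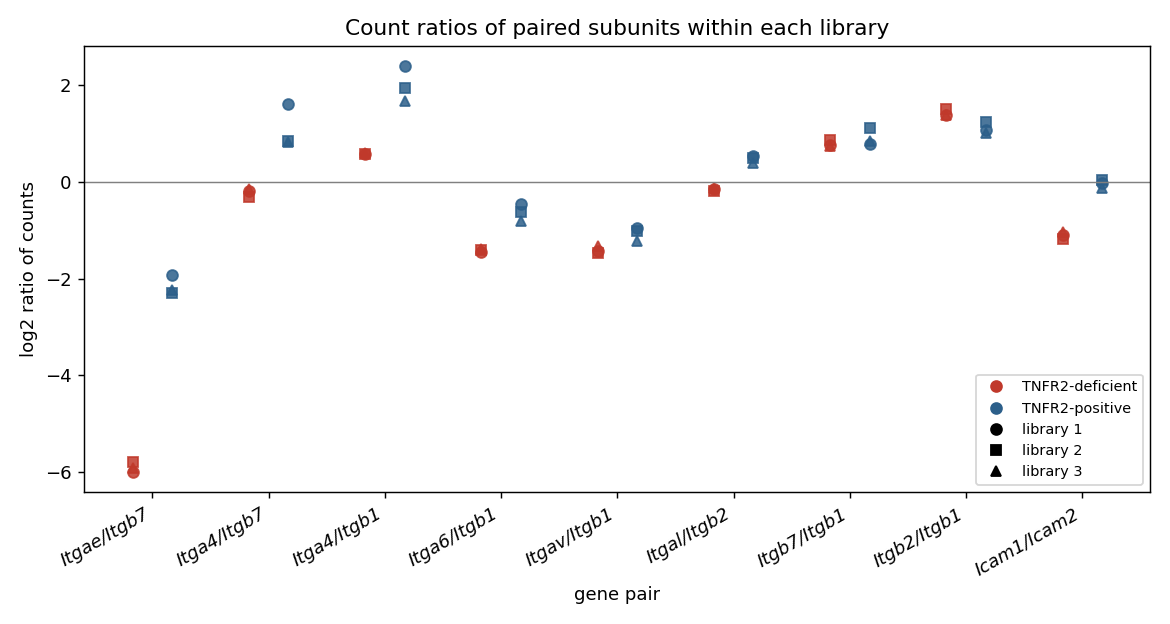
Log2 ratio of the counts of 2 genes in the same library (y axis) for 9 gene pairs, in TNFR2-deficient (red) and TNFR2-positive (blue) libraries. Gene length is not taken into account here. The groups overlap for Itgb7/Itgb1 alone, and the widest gap is that of Itgae/Itgb7, with a difference of -3.76.

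The other integrin subunits did not share one direction. Beside the counts of this list and those below, 35.1% of all genes tested were higher and 34.2% lower. Of 13 other alpha subunits 10 could be tested, of which 4 rose and 3 fell (median log2FC = -0.02). Itgax, the CD11c chain of dendritic cells and macrophages, fell from 43.4 ± 2.38 to 20.5 ± 0.936 CPM (adjusted p = 1.46e-07), and Itga2, a collagen receptor chain, from 8.17 ± 1.68 to 1.63 ± 0.199 CPM (adjusted p = 9.29e-07). Itgad, the CD11d chain of tissue macrophages, rose from 18.2 ± 2.83 to 42.7 ± 2.61 CPM (adjusted p = 8.37e-07). In the same libraries 5 of 5 dendritic cell markers were lower and 7 of 9 myeloid markers higher, and their part in these values was not tested.

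Of 5 other beta subunits 4 could be tested, and 2 rose and 2 fell (median log2FC = 0.43). Itgb8, the partner of alpha V that releases active TGF-beta on Treg cells, fell from 5.86 ± 0.928 to 0.198 ± 0.189 CPM (log2FC = -4.82, adjusted p = 3.8e-07). It had 14 counts in the TNFR2-deficient libraries together, which gives a ratio of 29.1 with a 95% counting interval of 17.2 to 53.8. Of these counts 10 were in TNFR2-deficient library 3, and the log2FC was -5.97 without it. The 8 Treg markers summed to 33.1 to 38.9 against 503.4 to 556.7 CPM in the same libraries, and the part of Treg cells in the level of Itgb8 was not tested. Itgb3, another partner of alpha V, fell from 33.3 ± 1.26 to 23.7 ± 0.258 CPM (adjusted p = 3.9e-05), while Itgb5, a further partner, rose from 6.40 ± 0.182 to 20.9 ± 1.16 CPM (adjusted p = 2.95e-08). Itgb3 is also a platelet integrin chain. Of the platelet markers 3 were higher and 1 was lower, and the part of platelets in the level of Itgb3 was not tested.

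Of 13 further ligands listed, Icam4 and Icam5 among them, 12 were in the table and 6 could be tested, of which 2 rose and 3 fell (median log2FC = -0.82). Vcam1, the ligand of alpha 4 beta 1 on vessels, stroma and spleen macrophages, rose from 101.0 ± 7.31 to 324.9 ± 19.03 CPM (log2FC = 1.68, adjusted p = 3.66e-09), opposite to Itga4. F11r, the junctional molecule JAM-A that LFA-1 can bind, rose (log2FC = 1.44, adjusted p = 1.46e-05), and Fn1, which encodes fibronectin, fell (log2FC = -2.29, adjusted p = 4.9e-06). The 9 myeloid markers, summed, were at 882.8 to 958.6 against 465.9 to 523.5 CPM in the same libraries, and their part in the rise of Vcam1 was not tested. E-cadherin, the ligand of CD103 encoded by Cdh1 and named here after its value was seen, was at 0.694 ± 0.0718 against 1.64 ± 0.0832 CPM.

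Genes that switch integrins from a resting to a binding state moved both ways and mostly by less than 2-fold. So did the genes tested as a whole, with 35.1% higher, 34.2% lower and 21.5% changed by 2-fold or more. Of 29 activators and adaptors 27 could be tested, of which 9 rose and 11 fell (median log2FC = -0.10), and 2 and 1 of them by 2-fold or more. With the length relation removed 12 rose and 9 fell. The tallies over all genes shifted the same way with that step, from 5983 higher and 5819 lower of 17022 to 6493 and 4852 of 16643. Vcl, which encodes vinculin of the adhesion complex, fell from 14.5 ± 3.15 to 0.807 ± 0.126 CPM (log2FC = -4.16, adjusted p = 1.63e-08). Stk4, the kinase MST1 that acts on LFA-1 through RAPL, fell (log2FC = -0.70, adjusted p = 4.44e-06), and Skap1, a T cell adaptor of LFA-1 activation, rose (log2FC = 0.75, adjusted p = 8.72e-07). Talin and kindlin-3, which bind the beta chain tails, were looked up after their values were seen. Tln1 was at 409.6 ± 4.57 against 643.8 ± 57.4 CPM (log2FC = -0.65, adjusted p = 6.27e-06) and Fermt3 at 283.5 ± 9.10 against 228.1 ± 6.81 CPM (log2FC = 0.31, adjusted p = 0.000422).

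Of 8 genes that restrain integrins 5 rose and 2 fell (median log2FC = 0.34), where 35.1% of all genes tested were higher and 34.2% lower. Flna, which encodes filamin A, a competitor of talin on beta tails, fell from 838.2 ± 91.5 to 350.3 ± 9.47 CPM (log2FC = -1.26, adjusted p = 8.29e-08). Rasa3, which turns off the GTPase Rap1, fell (log2FC = -0.52, adjusted p = 6.7e-06), and the adaptor Dok1 rose (log2FC = 0.66, adjusted p = 9.93e-06). Of 18 other adhesion molecules of T cells 5 rose and 8 fell (median log2FC = -0.08), and 3 rose with DESeq2, without any one of the TNFR2-deficient libraries or without TNFR2-positive library 2. Cd226, a costimulatory receptor that cooperates with LFA-1, fell from 36.8 ± 7.31 to 6.78 ± 0.646 CPM (adjusted p = 4.5e-08). Crtam, a receptor of activated T and NK cells, fell 5.83-fold (adjusted p = 8.2e-08) and Spn, the sialomucin CD43, 1.93-fold (adjusted p = 1.02e-07). All 6 markers of NK and cytotoxic cells were lower in these libraries, and their part was not tested.

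**Figure D5:**
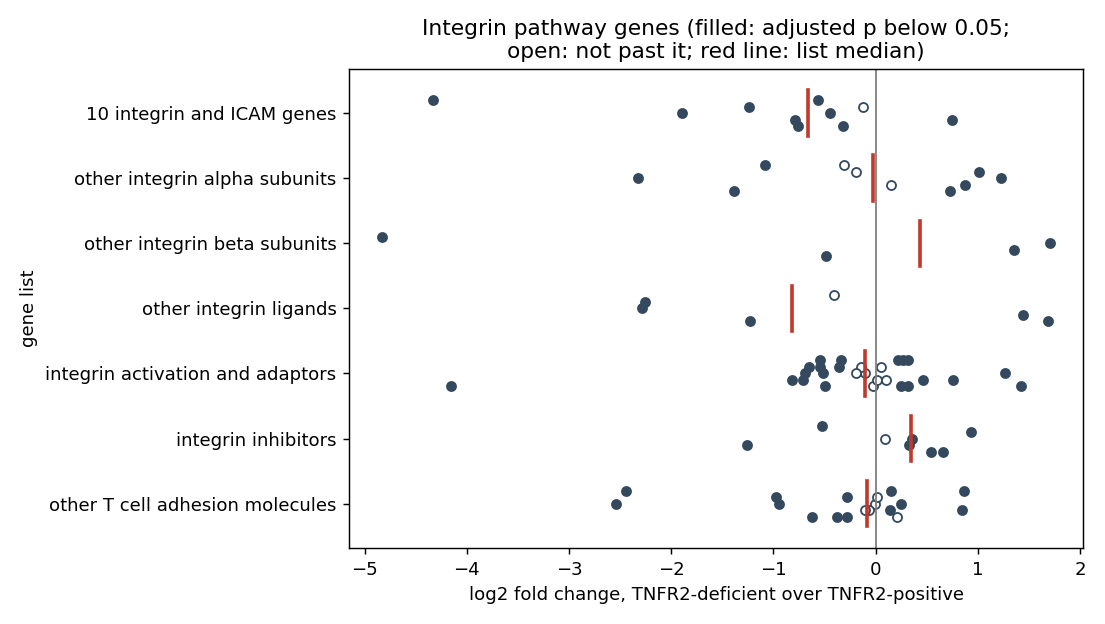
Log2 fold change (x axis, TNFR2-deficient over TNFR2-positive) of every tested gene in the 10 integrin and ICAM genes and 6 related lists, filled where the adjusted p was below 0.05, with the list median in red. The median is -0.66 for the 10 genes and lies between -0.82 and 0.43 for the other lists.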

How the data were processed

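RNA was extracted with TRIzol and captured on oligo-dT beads, per the labels' protocols, and HISAT2 2.1.0 and the build GRCm39 are named in the submitters' processing notes. For the counting program, annotation and strand setting the entry is: not given in the sources used here. Counts per gene were deposited by the authors as whole numbers, with no normalization. Of 32377 identifiers 30529 had a symbol in the name table supplied. Genes were filtered with filterByExpr, scaled by TMM and tested in edgeR 4.0.16 under R 4.3.3 by its quasi-likelihood functions (glmQLFit, glmQLFTest; intercept and group), with adjustment over 17022 genes. Exonic lengths came from GENCODE M21, an older build, and 97.8% of the tested genes had one. Lengths served for CPM per kilobase and for offsets from splines with 4 degrees of freedom. For ratios, 0.5 was added to each count (scipy 1.17.1). Of each related list the 3 genes with the smallest adjusted p are named. The genes, lists and tests were chosen with earlier results of these data known. Alternatives were DESeq2 1.42.0, voom of limma 3.58.1, other scalings and filters, a minimum log2 fold change of 1, a replicate block, length offsets, removal of other cells' markers and leaving out each library. The edgeR script was tested before use on simulated data of 16634 genes, with 50 changed at each of 1.5-, 2-, 4- and 8-fold. It recovered 72% at 1.5-fold and 90% or more at the others, and called 16 unchanged genes. Unlike these data, the simulation changed few genes and held no relation to gene length, so it cannot show how the fit behaves under either.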

Additional observations from a re-analysis of the deposited data

How the results depend on the processing

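Over 17 alternatives no log2FC of the 10 genes changed sign. Counting 8 lower and 1 higher, the alternatives gave 8 or 9 lower and 1 higher, except that a minimum log2 fold change of 1 left 3 lower (Itgae, Itga4 and Itga6) and 0 higher. Over all 17022 genes tested that minimum left 1434 lower and 764 higher. With that minimum the other alpha subunits counted 1 higher and 1 lower, the other beta subunits 1 and 1, the activators and adaptors 1 and 1, the inhibitors 0 and 1 and the other adhesion molecules 0 and 2. The higher adhesion molecules numbered 3 rather than 5 with DESeq2, RLE scaling or no scaling beyond library size, and 3 to 5 when a library was left out, with 3 without any one TNFR2-deficient library or TNFR2-positive library 2. The lower alpha subunits numbered 3 to 5 when a library was left out, with 5 without TNFR2-deficient replicate 1. A filter of 1 CPM left 1 higher beta subunit. The causes of these differences were not tested, beyond the stricter null of the minimum fold and the fewer genes of the filter. With the replicate block 6005 genes were higher and 5851 lower, against 5983 and 5819, and the calls of the 10 genes were as before. Same-numbered libraries did not deviate together (correlations 0.0372, 0.054 and -0.0611). Deviations from means of 3 libraries cannot show whether same-numbered libraries share an animal or a batch, and the labels do not say. For the 9 ratios the block gave an exact sign-flip p of 0.25, the smallest that 3 pairs allow. Their signs were kept with the block, other pseudocounts and each library left out, but with length offsets, added after the data were seen, Itgav over Itgb1 turned from -0.34 to 0.12. Depth limits the value of Itgb8, with 14 counts in the TNFR2-deficient libraries together, more than that of any of the 10 genes.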
